A study of Mus musculus with 30 samples.

Results

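The regions described here are short stretches of open chromatin that were listed in both stages of mouse spermatogonia and in neither of the later germ cell stages. Members were found by joining the ATAC-seq peaks of 4 stages on chromosomes 1 to 19 wherever they overlapped by at least 1 bp. A joined region was a member if it was under 1000 bp wide, overlapped a peak of both spermatogonial stages and overlapped no peak of a later stage. The joining gave 113894 regions, of which 100766 were under 1000 bp wide and 14905 were members. Members thus made up 14.8% of all narrow regions (95% Wilson interval 14.57 to 15.01) and 13.1% of all regions. Presence in the lists and width chose the members, so those values are given as a description and support nothing.

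The cells came from testes of C57BL/6 mice and carried no transgene or treatment that the labels name. Primitive type A spermatogonia (PriSG-A) were from day 6 after birth and type A spermatogonia (SG-A) from day 8, while spermatocytes at pachytene (pacSC) and spermatids at the round stage (rST) were from adults. ATAC-seq, which inserts sequencing adapters into accessible DNA with the Tn5 transposase, was run on 3 PriSG-A, 3 SG-A, 2 pacSC and 2 rST libraries. Each stage was deposited as 1 peak list, with 54413 autosomal peaks for PriSG-A, 85773 for SG-A, then 32902 for pacSC and only 6233 for rST. With 1 list per stage there is no replicate error, no p-value was computed between stages, and intervals cover counting error only. The files hold no expression, so the purity of the labelled cell types was not checked against marker genes. Per the labels' protocols the testes were minced and digested with collagenase IV and DNase I. The labels do not say how the cell types were then separated or how many animals were used. Age differs with cell type between PriSG-A and SG-A, and between the spermatogonial and later stages.

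Spermatogonia are the mitotic germ cells of the testis, and some of them serve as stem cells that maintain sperm production. Their descendants enter meiosis, pass through a long pachytene stage in which homologous chromosomes are paired, and divide into haploid round spermatids. An ATAC-seq peak marks DNA that the transposase could reach, as is typical of promoters, enhancers and insulator sites, and narrow peaks are often single sites between nucleosomes. Without an annotation on the assembly of the coordinates, no gene, promoter or sequence is assigned to any region below.

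In the lists as deposited, most narrow regions shared by the spermatogonial stages had no later peak, which was not so once the lists were made equally long, as given below. Of 18042 narrow regions listed in both, the members made up 82.6% (82.1 to 83.2). A further 14.5% (2619 regions) were also listed in pacSC but not rST, 2.46% (444) were listed at all 4 stages, and 0.410% (74) were listed in rST but not pacSC. Among regions of both spermatogonial stages that were at least 1000 bp wide, 3624 of 12601, or 28.8% (28.0 to 29.6), had no later peak. Narrow regions therefore supplied 80.4% of all 18529 regions restricted to both spermatogonial lists.

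A joined region takes in any later peak it overlaps, so a later peak can itself widen a region past 1000 bp. The shares by width were therefore also taken with only the PriSG-A and SG-A peaks joined and measured, which left the 14905 members as they were and gave 18269 narrow regions, of which 81.6% (81.0 to 82.1) had no later peak. On that width the share was 88.9% (87.7 to 89.9) under 200 bp, 87.2% from 400 to 499 bp, 75.7% from 700 to 799 bp and 54.4% (51.8 to 57.1) from 900 to 999 bp. From 1000 bp to under 1500 bp it was 36.4% (35.2 to 37.6). Width and absence from the later lists are both part of the rule, so these shares are a description. The share was also lower among stronger regions. The −log10 q is the authors' significance value for each peak, and a region was given that of its strongest peak in a list. These shares by strength are on the joined width, with later peaks included. Of the 1805 narrow regions with the lowest −log10 q in SG-A, 91.6% had no later peak, against 44.2% of the 1805 with the highest.

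Narrow and wide regions were also set side by side at like strength in SG-A, on the width of the spermatogonial peaks alone. Width and absence of a later peak are part of the rule, so these values too are only a description. Strength in PriSG-A was not matched. Ranges ran from 2 to 9, and regions of lower or higher −log10 q were left out. At any strength, 29.2% of all 12401 wide regions and 81.6% of all 18269 narrow regions had no later peak. In every range taken the share without a later peak was higher in narrow regions, but the intervals were apart in some ranges only. For a −log10 q from 3 to 4 the shares were 87.4% (86.4 to 88.3) of narrow and 73.9% (68.2 to 78.8) of wide regions. From 4 to 5 they were 80.9% (79.4 to 82.3) and 69.0% (65.3 to 72.5), and from 5 to 6 they were 73.1% (70.9 to 75.1) and 62.6% (59.7 to 65.4). From 7 to 9 they were 38.6% (35.1 to 42.2) and 31.0% (29.5 to 32.5). The intervals overlapped from 2 to 3, at 90.3% (89.5 to 91.0) of narrow and 86.8% (75.2 to 93.5) of 53 wide regions, and from 6 to 7, at 56.4% of narrow and 53.8% of wide regions. What entered the width mattered most for weak regions. With the later peaks joined in, the wide share from 2 to 3 was 50.0% (39.99 to 60.01) of 92 regions.

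**Figure D1:**
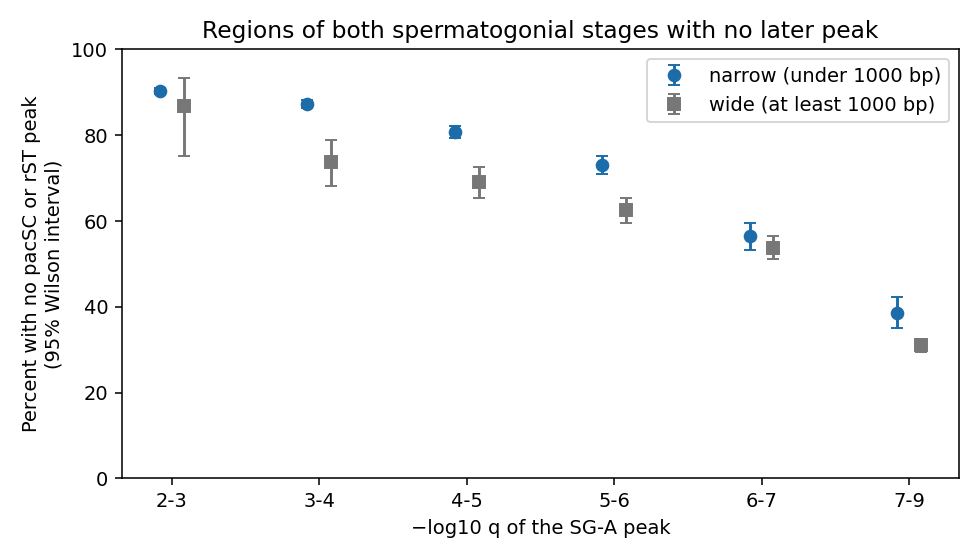
Percent of regions listed in both spermatogonial stages that had no pacSC or rST peak (y axis), by the −log10 q of the strongest SG-A peak (x axis), for narrow regions (circles, under 1000 bp) and wide regions (squares), with width taken from the spermatogonial peaks alone. Bars are 95% Wilson intervals, which overlap from 2 to 3 and from 6 to 7, and the narrow share is 90.3% at 2 to 3 and 38.6% at 7 to 9. Regions below 2 or at 9 and above are left out.

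How many regions met the rule depended on the lengths of the lists. When all 4 lists were reduced to the 6233 peaks of highest −log10 q, 47 regions remained and 25.8% (20.0 to 32.6) of narrow spermatogonial regions had no later peak. With PriSG-A and SG-A reduced to the 32902 peaks of the pacSC list, 5727 regions met the rule and the share was 72.6%. Read depth is unknown, so absence from a later list and a shallower later library cannot be told apart.

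Members were usually simple, with 1 peak of each list. This held for 12754 of them, or 85.6% (85.0 to 86.1). In 1371 members, or 9.20%, 1 SG-A peak spanned several PriSG-A peaks, and in 713, or 4.78%, 1 PriSG-A peak spanned several SG-A peaks. Only 67 had several peaks of both. No member held more than 4 peaks of either list.

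The strongest SG-A peak of a member had a median width of 314 bp (interquartile range 134 to 556), against 201 bp (100 to 356) for its PriSG-A peak. The SG-A peak was the wider in 9757 members, or 65.5% (64.7 to 66.2). Over all autosomal peaks the order was the opposite, with median widths of 179 bp in SG-A and 207 bp in PriSG-A. The joined regions had a median width of 405 bp (238 to 629) and ranged from 67 to 999 bp. Narrow regions of a single stage were much shorter, with medians of 103 bp for SG-A alone, 100 bp for PriSG-A alone and 106 bp for pacSC alone. A member by rule joins overlapping peaks of both lists, and a region of a single stage does not. The rule thus bears on these widths, and nothing is read from the differences.

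Widths of the PriSG-A peaks had a clear maximum and, at larger widths, a single raised bin. The fullest 25 bp bin was 100 to 124 bp, with 2532 peaks, and counts fell to 612 between 200 and 224 bp. The raised bin, from 250 to 274 bp, held 726 peaks, with 630 and 632 in the adjacent bins. Whether it is a separate mode was not tested. SG-A peaks also had their fullest bin from 100 to 124 bp, with 1595 peaks, and from 150 to 299 bp they formed a plateau of 493 to 536 per bin.

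**Figure D2:**
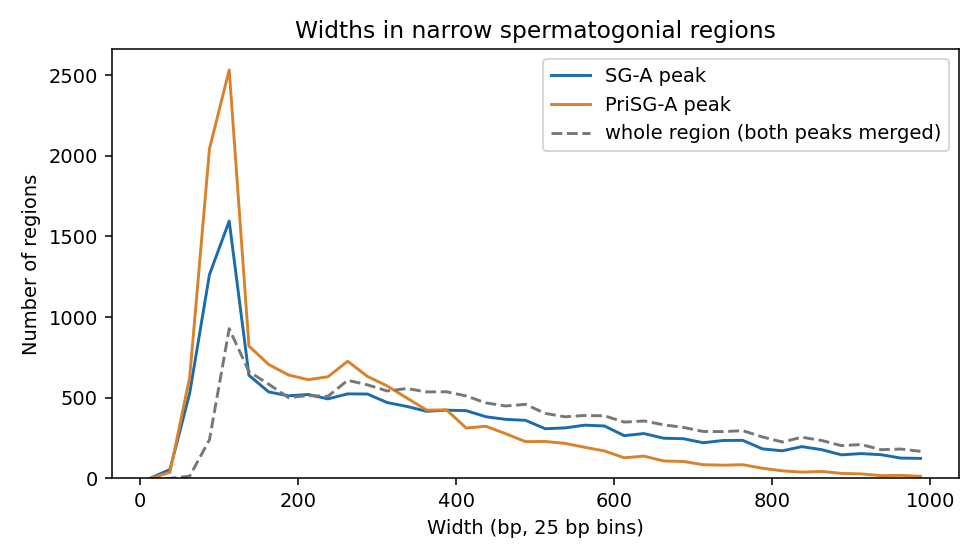
Number of narrow spermatogonial regions (y axis) by width in bp in 25 bp bins (x axis), for the strongest SG-A peak, the strongest PriSG-A peak and the whole joined region (dashed). Both peak curves are highest from 100 to 124 bp, with 1595 SG-A and 2532 PriSG-A peaks, and SG-A has the longer tail.

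In members with 1 peak of each list the peaks overlapped by a median of 116 bp, which was 47.1% of their joint span. The SG-A peak contained the PriSG-A peak in 5281 of 12754 cases (41.4%), and the PriSG-A peak contained the SG-A peak in 2115 (16.6%). In 42.1% the peaks were offset, each reaching past the other. A reciprocal overlap of at least 50% was met by 50.5% (49.6 to 51.4). Only 7 pairs had identical limits.

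Members were moderate peaks in SG-A and weak to moderate peaks in PriSG-A. The median −log10 q was 3.24 in SG-A and 2.42 in PriSG-A, against medians of 2.71 and 2.42 over all autosomal peaks of those lists. A −log10 q of at least 3 was reached by 58.5% of members in SG-A, where 40.7% of all peaks reached it, and by 22.6% in PriSG-A, where 32.7% did. A −log10 q of at least 5 was reached by 2076 members in SG-A (13.9%, against 18.2% of all peaks) and by 72 in PriSG-A (0.483%, against 9.4%). Only 58 members reached 5 in both lists. These shares use the strongest peak of each member, and the rule's width limit leaves out the widest peaks, so nothing is read from the difference.

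The deposited score tracked the mean signal per base. Tested on the values, it equalled 1000 times the signal value divided by the width, with a cap at 1000, within a tolerance of 1 for 100% of autosomal peaks in each list. Its median over members was 745 in SG-A and 457 in PriSG-A. The cap was reached by 33.0% of members in SG-A and 7.95% in PriSG-A.

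Most members had the higher −log10 q in SG-A, on values that depend on the unknown depth of each list. It was higher in SG-A in 11726 members, or 78.7% (78.0 to 79.3), with a median difference, SG-A minus PriSG-A, of 0.768 (0.748 to 0.791). The same held in 87.3% (86.1 to 88.4) of narrow regions that were also listed at a later stage and in 96.5% (95.9 to 97.1) of wide regions without a later peak. Ranks within each list gave a median difference of 11.99 percentile points in members, 9.19 in narrow regions with a later peak and 8.91 in wide regions. Those ranks come from lists of unequal length and make-up, so no difference between stages or classes is read from them. Over members the −log10 q of the lists was only loosely related, with Pearson's r of 0.387 and Spearman's rho of 0.300 across 14905 regions, which share their libraries and are not replicates.

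The 10 members with the highest −log10 q in the weaker of their lists lay on chromosomes 5, 7, 9, 10, 13, 16 and 17. The first, at chr17:21786975-21787937, had a −log10 q of 9.70 in SG-A and 7.16 in PriSG-A. It was a single 963 bp peak in SG-A and a 956 bp peak in PriSG-A, with summits 79 bp apart. A second region of chromosome 17 among the 10, at chr17:22217630-22218625, had values of 7.47 in SG-A and 5.96 in PriSG-A. The 10 were wide for members, from 518 to 996 bp.

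Within those 10 were 3 regions of chromosome 7 near its centromere end. They lay at chr7:9314440-9315356, chr7:10033741-10034690 and chr7:10461927-10462867, and were 917, 950 and 941 bp wide. Their −log10 q in SG-A was 6.56, 6.14 and 6.56. In PriSG-A it was 6.76, 7.28 and 6.81, above the SG-A value in each. Later peaks were far from all 3. The nearest region with a pacSC or rST peak was 1764556, 1045222 and 617045 bp away, and the nearest wide spermatogonial region was at the same distances. The nearest other members were 201640, 194920 and 45731 bp away. No filter for repeated sequence was applied, and whether these regions are copies of one sequence was not tested.

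Of the remaining members of that group, the region at chr16:64873217-64874168 had the highest −log10 q in SG-A, 10.8, with 5.96 in PriSG-A. Its summits were 5 bp apart. The region at chr9:53851676-53852193 had nearly equal values, 6.34 in SG-A and 6.31 in PriSG-A, and the same summit base in both lists. The region at chr10:7108842-7109792 had 7.16 in SG-A and 6.52 in PriSG-A. The one at chr13:67824671-67825495 had 7.39 in SG-A and 5.87 in PriSG-A, and the one at chr5:110425003-110425849 had 6.28 in SG-A and 6.10 in PriSG-A.

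Some members were strong in 1 list and barely admitted to the other. Percentiles within each list were used only to pick them. The 5 that ranked most highly in SG-A relative to PriSG-A were led by chr1:107967749-107968333. Its −log10 q was 6.76 in SG-A and 1.71 in PriSG-A, which is percentile 87.8 of the SG-A list and 1.21 of the PriSG-A list. Next came chr9:102628159-102629137, a 979 bp peak of 7.48 in SG-A over a 229 bp peak of 1.77 in PriSG-A. The others were chr10:126614414-126615242, chr17:73319989-73320605 and chr11:75343954-75344149, with values of 6.29, 6.12 and 5.74 in SG-A and 1.71 in PriSG-A for each. The region on chromosome 11 was 116 bp from a wide spermatogonial region that also had a later peak.

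The 5 that ranked most highly in PriSG-A relative to SG-A had a −log10 q of 1.79 to 1.89 in SG-A and 3.72 to 3.98 in PriSG-A, the SG-A peaks being 67 to 111 bp wide and the PriSG-A peaks 321 to 720 bp. They lay at chr7:92433232-92433578, chr9:7397524-7397844, chr4:115153563-115154359, chr12:41635374-41636068 and chr12:44928622-44929213. The closest of them to a region with a later peak was 48071 bp away.

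Where in the region the signal peaked was not part of the rule, beyond the overlap of the peaks. The SG-A and PriSG-A summits of a member were a median of 51 bp apart (50 to 53, interquartile range 17 to 142). They lay within 25 bp in 33.3% (32.5 to 34.0), within 50 bp in 49.7% and within 100 bp in 68.1% (67.3 to 68.8), and on the same base in 174 members. Neither direction prevailed. The SG-A summit lay at the higher coordinate in 49.7% (48.9 to 50.5) of members with separate summits.

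Distances between summits had a shoulder. Counts per 25 bp bin fell from 4829 below 25 bp to 626 between 100 and 124 bp, then stood at 640 from 125 to 149 bp and 657 from 150 to 174 bp before falling again to 327 from 250 to 274 bp. Of all members, 15.97% (15.40 to 16.57) had summits 125 to 224 bp apart. With 1 peak of each list the same bins held 564, 574 and 564 members, so the counts there were level. In narrow regions with a later peak the shoulder was larger, with 18.8% (17.5 to 20.2) of summits 125 to 224 bp apart. Their median distance of 53 bp (49 to 59) overlapped that of the members, although these regions were wider, with a median of 679 bp. Wide regions without a later peak had summits a median of 91 bp apart.

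**Figure D3:**
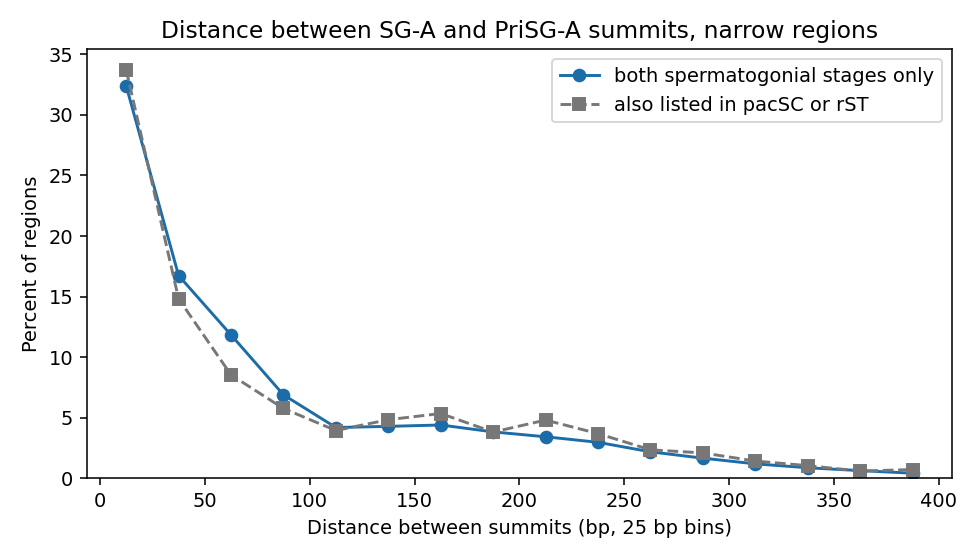
Percent of narrow regions (y axis) by the distance in bp between their strongest SG-A and PriSG-A summits in 25 bp bins (x axis), for regions of both spermatogonial stages only (circles) and those also listed in pacSC or rST (squares). Both curves fall steeply to 100 to 124 bp and rise slightly up to 150 to 174 bp, where they stand at 4.41% and 5.36%.

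Summits lay farther apart in wider members, but not in stronger ones. The median distance was 26 bp in the narrowest 3727 members, of 67 to 238 bp, and 82 bp in the widest 3726, of 629 to 999 bp. Members grouped by the −log10 q of their weaker list had medians of 48 bp in the weakest 3727, 54 and 53 bp in the middle groups and 48 bp in the strongest 3726. The strongest were also the widest, at a median of 634 bp against 270 bp in the weakest. The 3 members with the most distant summits lay at chr2:146048181-146049147, chr3:94938189-94939166 and chr8:72412351-72413213, with 878, 857 and 744 bp. Each held 2 PriSG-A peaks.

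Members were spread over all autosomes at 6.17 regions per Mb (6.07 to 6.27, Poisson) of the 2414 Mb between the first and last listed peaks. The density was lowest on chromosome 15, at 4.81 (4.39 to 5.26), and highest on chromosome 17, at 8.03 (7.46 to 8.63), a ratio of 1.67. Chromosome 7 followed with 7.64 (7.21 to 8.10). Dense windows, described below, entered these densities. The window chr17:13000001-14000000 held 53 of the 741 members of chromosome 17. The window chr7:31000001-32000000 held 55 of the 1142 of chromosome 7. Densities by chromosome without such windows were not computed. Chromosomes 11 and 19 had the highest densities of wide regions without a later peak (2.39 on chromosome 11) and of narrow pacSC regions (10.1 on chromosome 19), but members there had 5.63 and 5.72 per Mb. Median −log10 q of members varied little between autosomes, from 3.04 to 3.48 in SG-A and from 2.28 to 2.51 in PriSG-A.

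**Figure D4:**
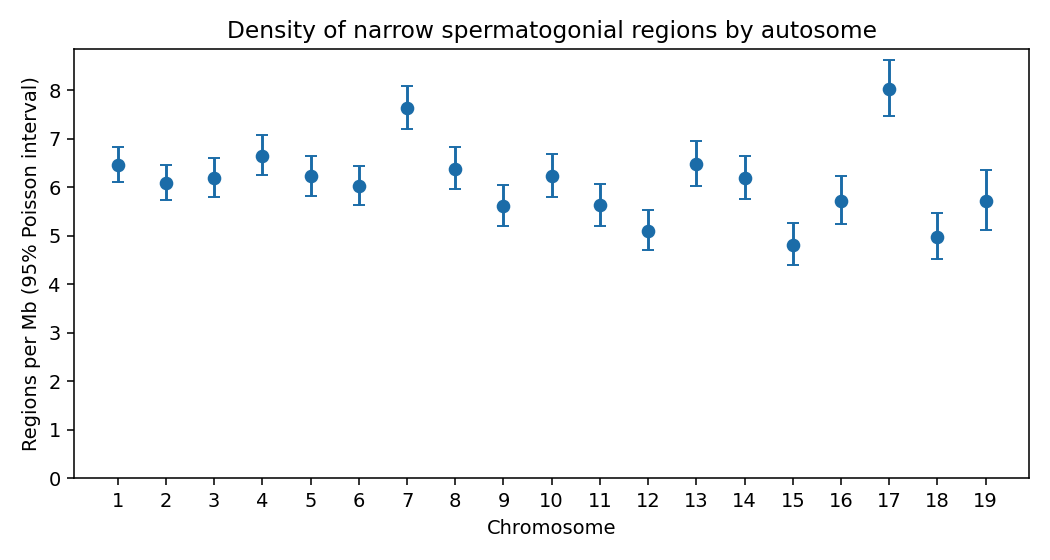
Narrow spermatogonial regions per Mb of listed span (y axis) on each autosome (x axis), with 95% Poisson intervals. Chromosome 17 is highest at 8.03 and chromosome 15 lowest at 4.81.

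Across the 19 autosomes the density of members was related most to that of wide regions without a later peak (Pearson's r 0.694, Spearman's rho 0.642) and of narrow regions of PriSG-A alone (0.610 and 0.674). With narrow regions of SG-A alone the values were 0.351 and 0.188, and with narrow regions of pacSC alone they were −0.337 and −0.446. These describe 19 chromosomes that share the same libraries, and no test was made.

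Members were not concentrated at the distal ends of chromosomes. The last 10 Mb held 7.41% of members (6.997 to 7.838), and it makes up 7.87% of the listed span. Over all regions the share was 13.5%. It was 10.4% (10.1 to 10.6) for narrow regions of SG-A alone, 6.07% (5.69 to 6.47) for PriSG-A alone and 39.6% (38.8 to 40.4) for pacSC alone. The share was lower for members than for SG-A alone on 15 of 19 autosomes. Within the last 10 Mb the density of members decreased outward, with 6.79 per Mb (6.28 to 7.33) between 5 and 10 Mb from the end, 5.32 between 2 and 5 Mb, 4.37 between 1 and 2 Mb and 3.84 (3.01 to 4.83) in the last 1 Mb. Narrow regions of pacSC alone had 52.8 per Mb in that last 1 Mb. The rule leaves out every region that overlaps a pacSC or rST peak. Its part in the distal share of members and in the outward decrease was not tested.

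At the opposite end, where mouse autosomes carry the centromere, the density of members was raised. It was 13.5 per Mb (11.9 to 15.2) in the first 1 Mb of the listed span, 10.2 in the next and 7.18 between 2 and 5 Mb. The first 10 Mb held 10.1% of members (9.60 to 10.6), against 8.78% of all regions, 6.82% of narrow regions of SG-A alone and 13.2% (12.7 to 13.8) of those of PriSG-A alone. It held 11.8% (10.7 to 13.0) of narrow regions of both spermatogonial stages with a later peak and 10.1% of those of pacSC alone. Of wide regions without a later peak it held 6.13%. The share was thus not particular to members. Repeated sequence was not filtered, and its part was not tested.

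Narrow regions with a later peak were more often distal than members at every strength. Their distal share was 16.2% (14.9 to 17.5), and it exceeded that of members on 18 of 19 autosomes. With a −log10 q in SG-A under 2.5 the shares were 7.21% (6.40 to 8.12) of members and 20.9% (16.8 to 25.6) of regions with a later peak. From 4 to 5 they were 7.97% and 20.6%, and at 7 or more they were 4.90% (2.94 to 8.05) and 11.02% (8.79 to 13.7). The regions with a later peak were chosen by the pacSC and rST lists, and 39.6% of narrow regions of pacSC alone were distal. Its part in this difference was not tested.

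**Figure D5:**
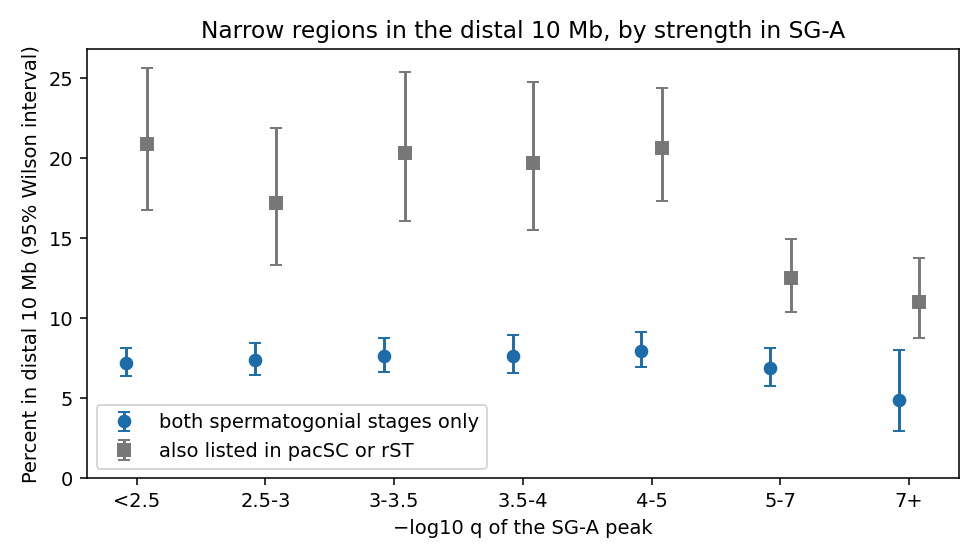
Percent of narrow regions in the last 10 Mb of their chromosome (y axis), by the −log10 q of the SG-A peak (x axis), for regions of both spermatogonial stages only (circles) and those also listed in pacSC or rST (squares), with 95% Wilson intervals. The circles stay between 4.90% and 7.97% and the squares between 11.02% and 20.9%.

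Most 1 Mb windows held members, and a few held many. Of 2426 windows of 1 Mb, 2285 held a member, with a median of 5 per occupied window, and 50 windows held 20 or more. Those 50 windows contained 1503 members, or 10.1% of all. The densest was at chr1:85000001-86000000, with 73 members among 185 regions of all kinds, 35 narrow regions of SG-A alone and 24 of PriSG-A alone. A second window on the same chromosome, chr1:87000001-88000000, held 64 members. Both also held many round spermatid peaks, 123 and 49, and fewer pachytene peaks, 25 and 24, which lay in other regions of the windows.

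The next windows differed in their later peaks. The window chr7:31000001-32000000 held 55 members with 15 pacSC peaks and no rST peak. The window chr17:13000001-14000000 held 53 members and, apart from these, 118 narrow regions of PriSG-A alone, among 267 regions of all kinds. Its members had a median −log10 q of 2.45 in SG-A and 2.27 in PriSG-A. The window chr8:19000001-20000000 held 46 members with 132 pacSC and 69 rST peaks. Members of the 5 densest windows had median widths of 401 to 503 bp. Multi-copy sequence in these windows was not filtered, and its part in these counts was not tested.

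Many members had other open regions close by. A region with a spermatogonial peak lay within 500 bp of 56.6% of members (55.8 to 57.4), against 54.3% (53.8 to 54.7) of narrow regions of SG-A alone, 48.5% of those of PriSG-A alone and 13.0% of those of pacSC alone. The nearest region of any kind was one of SG-A alone for 45.6% of members, close to the 44.9% of all regions that this class forms. For 24.8% the nearest was another region of both spermatogonial stages without a later peak, a class that forms 18529 of all 113894 regions. For 15.9% it was one of PriSG-A alone, of any width. That class has 14666 narrow regions, and its size at any width is not given here. Another member lay within 500 bp of 2561 members (17.2%). Gaps between 100 and 199 bp were the most common there, in 1557 members. Members with such a neighbour were narrower, with a median of 286 bp against 431 bp for the rest. A neighbour of the same class was as close for 35.4% of 50952 narrow regions of SG-A alone and 23.6% of 14666 of PriSG-A alone. It was so for 6.50% of 3137 narrow regions with a later peak. Class sizes enter these shares, so members are not set apart by theirs.

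Wide spermatogonial regions, of at least 1000 bp, lay within 10 kb of 22.9% of members (22.2 to 23.5), equal to the 22.9% of all narrow regions. This placed members between narrow regions of SG-A alone, at 30.7% (30.3 to 31.1), and those of PriSG-A alone, at 11.5% (10.96 to 11.99). Members near a wide region had a median −log10 q of 3.43 in SG-A and 2.40 in PriSG-A. Members with none within 10 kb had 3.19 in SG-A and 2.42 in PriSG-A.

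Later peaks were close to a minority of members. A region with a pacSC or rST peak lay within 1000 bp of 8.05% (7.62 to 8.50) and within 10 kb of 25.0%, and the median gap was 30637 bp. For narrow regions of SG-A alone the shares were 12.1% (11.8 to 12.4) and 32.0%. For those of PriSG-A alone they were 7.74% (7.32 to 8.18) and 19.1%. Wide regions of both spermatogonial stages without a later peak had 3.23% and 21.7%. Narrow regions of both with a later peak had 22.7% and 40.2%. Shares this low were thus not particular to members. Of members with a later peak within 10 kb, 14.1% (13.0 to 15.3) were in the distal 10 Mb, against 5.18% (4.78 to 5.60) of the rest. A later peak lay within 50 kb of 63.8% of members, 71.4% of narrow regions of SG-A alone and 50.4% of those of PriSG-A alone. The share was 66.6% for wide regions without a later peak and 75.5% for narrow regions with one. No later peak was found within 50 kb of 5393 members (36.2%), within 500 kb of 155, and within 1000 kb of 27. The last 2 counts were taken for members only. Of those 27, 8 were on chromosome 7, which held 1142 of all 14905 members. The most isolated were chr7:9112227-9112799, 1858241 bp from a later peak, the region at chr7:9314440-9315356 described above, and chr7:33216313-33216580, at 1473490 bp.

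The closest approaches show what the overlap rule decided. A member at chr8:8700853-8701147 abutted a region with a later peak. Members at chr19:58529333-58529601 and chr4:9770114-9770575 were 2 and 4 bp from one. At the width limit, the 3 members just inside were 999 bp wide, at chr1:74849508-74850506, chr4:118314816-118315814 and chr5:93580566-93581564. Their −log10 q was 6.70, 3.96 and 3.22 in SG-A and 2.04, 2.70 and 3.10 in PriSG-A. The 3 just outside were 1000 bp wide, at chr3:51190368-51191367, chr6:30687605-30688604 and chr7:127813591-127814590, with 6.26, 6.85 and 5.17 in SG-A and 2.59, 3.13 and 3.61 in PriSG-A.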

How the data were processed

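Each of 4 stages had a single ATAC-seq peak list. One deposited name is garbled, and that list was taken as PriSG-A from the labels and by exclusion. The submitters' processing notes name Bowtie2 2.2.5, Bowtie, SAMtools and mm10, without roles. No source used here gives the peak caller, the way replicates were combined, a Tn5 shift or the read depth. On 10 of 19 autosomes, by up to 7.20 Mb on chromosome 7, peaks extended beyond the final gene in RefSeq's GRCm38 annotation. The positions were therefore not taken to be on mm10, although this check used genes and not chromosome lengths. The extent of the lists is compatible with mm9, an older assembly that the sources do not name. Positions stay on the files' own assembly and are written 1-based. No annotation, motif or sequence was used.

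For every peak the authors deposited a score and a signal value, which grows with width. The authors' deposited −log10 q-value gave peak strength, and their summit offset gave the position of highest signal.

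Regions were joined in Python 3.11.15 with pandas 2.3.3 and NumPy 2.4.6, tested on simulated lists. A region took the values of its strongest peak per list. Shares have Wilson 95% intervals, medians order-statistic 95% intervals and densities Poisson 95% intervals, which treat neighbouring regions as independent. Gaps exclude overlapping regions. Distances to chromosome ends run to the first or last listed peak. Named regions are the 10 with the highest weaker −log10 q, the 5 with the largest percentile difference in each direction, the 5 densest 1 Mb windows, and the 3 at each extreme of width limit, later-peak gap and summit distance. The members and lists were chosen with earlier results of these data known. Hi-C and ChIP-seq samples were not analysed here.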

Additional observations from a re-analysis of the deposited data

Results flagged for a closer look

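Chromosomes X and Y lie outside the autosomal rule, and both held regions that met it otherwise. On X, 760 narrow regions were listed in both spermatogonial stages and no later stage, at 4.65 per Mb (4.32 to 4.99), against 6.17 per Mb on autosomes. They made up 76.4% (73.6 to 78.9) of the 995 narrow X regions of both spermatogonial stages, against 82.6% on autosomes. On Y there were 31, at 11.2 per Mb (7.61 to 15.9) of a listed span of 2.77 Mb, and they made up 46.3% (34.9 to 58.1) of 67. Male germ cells carry a single X and a single Y before meiosis, and repeated Y sequence was not filtered.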

How the results depend on the processing

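Of 35 alternative values, 13 stayed within the interval of the reported value (counts within 1.5 times) and 22 moved. With lists of equal length the share without a later peak turned from a majority into a minority. The count of members, 14905 as reported, became 3337 after filtering every list at −log10 q 3 and 226 after filtering at 5. It was 47 for lists of equal length, 5727 with PriSG-A and SG-A reduced to the pacSC length, 9198 under 500 bp and 6803 when the peaks had to overlap reciprocally by 50%. The share of narrow spermatogonial regions without a later peak, 82.6% as reported, was 81.6% and 70.4% under those filters, 25.8% for equal lists, 72.6% at the pacSC length, 90.15% under 500 bp, 63.6% under 2000 bp and 81.6% with width from the spermatogonial peaks alone. The summit distance was 64.5 bp between peak midpoints, 47 bp for members that reached −log10 q 3 in SG-A and in PriSG-A and 48 bp with 1 peak of each list. The SG-A minus PriSG-A difference was 11.99 points on the percentile scale. The distal share was 3.08% in the last 5 Mb and 14.2% in the last 20 Mb. The share near a wide region was 15.3% within 5 kb, 53.5% within 50 kb, and 20.1% without 1 Mb windows of 20 or more members. The settings without dense windows and with spermatogonial width were chosen after seeing the data. Fewer peaks enter the filtered lists, and zones and distances change by construction. The cause was not tested otherwise. No paired analysis was possible because the replicates of a stage share a single list, so leaving out a replicate could not be done either. The planned motif and gene results were not run for want of a matching genome. Since depth is unknown, absence from a list is only absence at that list's depth.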
